A study of Mus musculus with 12 samples.

Results

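The genes described here encode scaffold proteins, kinase subunits and their partners on the receiving side of excitatory synapses. They were 34 genes, taken by gene symbol from the deposited tables of the dorsal and the ventral hippocampus, out of 31766 genes listed in either table. The 34 symbols occupied 35 rows, because Dlg2 was listed under a second identifier that held 156 counts in all 12 samples together, and the row with more counts was used for Dlg2. RNA came from macrodissected dorsal or ventral hippocampus of adult mice and was profiled by sequencing of 3′ ends, which yields a short tag close to the poly(A) tail of a transcript per read. Animals of all 4 groups were homozygous for a floxed Tet3 allele. The cKO animals (Tet3fl/fl; Camk2a-CreERT2) also carried 1 copy of a tamoxifen-inducible Cre recombinase driven by the promoter of Camk2a, itself among the 34 genes, whereas the controls carried no Cre. Tamoxifen was injected at 50 mg/kg 2 times a day from 6 weeks of age, for 5 days and, after a pause of 7 days, for 5 more days. The labels give this protocol for control and cKO samples alike. The Camk2a promoter is active in excitatory forebrain neurons, so the other cells of the dissected tissue keep the floxed allele intact. Each of the 4 groups held 3 samples, named here by the numbers in their titles: dorsal control 41, 49 and 71, dorsal cKO 40, 43 and 64, ventral control 41, 49 and 50, and ventral cKO 40, 63 and 64.

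At an excitatory synapse, glutamate receptors are held opposite the release site by a protein lattice called the postsynaptic density. Membrane-associated guanylate kinases (MAGUKs, encoded by the Dlg genes) bind receptors and adhesion proteins. SAPAP proteins, encoded by the Dlgap genes, link MAGUKs to Shank, and Homer joins Shank to metabotropic glutamate receptors. Calcium entering through NMDA receptors binds calmodulin, which activates the kinase CaMKII, and regulators of small GTPases and of actin reshape the spine that carries the synapse. Neuroligins and LRRTM proteins span the cleft and bind presynaptic neurexins. Tet3 encodes a dioxygenase that oxidises 5-methylcytosine at CpG sites, and the comparisons asked whether transcript levels differ after its ablation in each part of the hippocampus.

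Promoter windows are shown first for 4 genes that differed between the dorsal and the ventral hippocampus, the 2 with the largest positive and 2 with negative differences, because CpG sites are where Tet3 acts. The windows run from 250 bases before to 50 bases after the start that RefSeq gives the gene, are read 5′ to 3′ on the gene's strand from RefSeq on GRCm38.p6, and carry each CG dinucleotide in capitals. For Camk2d, Camk2b and Homer3 that start lies inside the gene's span in GENCODE M21, which gives the gene coordinates further on.
Camk2d, chr3:126596701-126597000, plus strand: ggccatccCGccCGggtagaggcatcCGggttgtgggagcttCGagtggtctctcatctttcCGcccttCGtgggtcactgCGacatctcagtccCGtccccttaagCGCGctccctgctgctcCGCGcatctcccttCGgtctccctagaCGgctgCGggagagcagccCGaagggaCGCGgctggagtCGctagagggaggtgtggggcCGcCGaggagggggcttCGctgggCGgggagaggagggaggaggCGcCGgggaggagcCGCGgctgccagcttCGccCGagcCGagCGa
Lrrtm4, chr6:80018627-80018926, plus strand: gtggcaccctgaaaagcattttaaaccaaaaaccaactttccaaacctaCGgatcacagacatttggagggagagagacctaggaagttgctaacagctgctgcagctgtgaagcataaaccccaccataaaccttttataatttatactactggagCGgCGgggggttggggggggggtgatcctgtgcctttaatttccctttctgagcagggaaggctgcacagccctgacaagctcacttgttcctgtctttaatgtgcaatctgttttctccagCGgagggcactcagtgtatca
Camk2b, chr11:6065699-6065998, minus strand: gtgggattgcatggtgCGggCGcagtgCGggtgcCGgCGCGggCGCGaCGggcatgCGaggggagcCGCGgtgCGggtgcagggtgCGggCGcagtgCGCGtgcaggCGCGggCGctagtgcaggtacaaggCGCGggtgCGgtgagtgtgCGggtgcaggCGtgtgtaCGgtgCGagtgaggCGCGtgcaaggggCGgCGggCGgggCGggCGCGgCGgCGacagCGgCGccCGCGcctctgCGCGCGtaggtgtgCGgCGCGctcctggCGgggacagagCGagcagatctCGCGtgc
Homer3, chr8:70282749-70283048, plus strand: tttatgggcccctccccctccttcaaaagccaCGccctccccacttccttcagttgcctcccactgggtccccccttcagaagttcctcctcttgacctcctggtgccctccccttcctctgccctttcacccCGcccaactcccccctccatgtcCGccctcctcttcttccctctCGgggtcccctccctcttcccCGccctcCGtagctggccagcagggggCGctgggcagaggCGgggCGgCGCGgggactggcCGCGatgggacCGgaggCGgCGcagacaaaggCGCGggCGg

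The Camk2d window held 31 CG dinucleotides and the Camk2b window 51, although these 2 genes encode subunits of the same kinase and differed between the regions in opposite directions. The Lrrtm4 window held 4 and the Homer3 window 19. Of the 34 genes, 26 matched the RefSeq promoter table. For each, the window nearest the gene start in GENCODE M21 was taken. These windows held a median of 15.5 CG dinucleotides (2 to 51), against a median of 7.0 over all 32841 windows of the table, and a median GC content of 59.8% against 52.7%. All windows cover 27018 genes, some with more than 1 window, and were not limited to expressed genes, so the 2 sets are unlike. On either strand, the letters GGGCGG stood in 61.5% of the members' windows and in 35.7% of all windows, TATAAA in 7.69% against 13.6%, and CAGCTG in 15.4% against 16.3%. The letters TGACGTCA stood in 0 of the 26 windows and in 1.79% of all windows, and GCGTGGGCG in the window of Shank3 alone (3.85% against 0.612%). No methylation was measured in these samples, so the windows describe the genes and not a change at them.

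Total counts were 5.12 to 15.9 M per sample (median 9.07 M), summed over 35 sequencing runs. Dorsal cKO 64 had only 2 runs and the lowest total, whereas every other sample had 3 runs. Levels are given as CPM, the counts of a gene per M counts of the scaled library. Tet3, the targeted gene, had dorsal levels of 29.89, 37.2 and 33.76 CPM in control and 32.26, 41.82 and 40.43 CPM in cKO animals. In the ventral hippocampus it measured 34.7, 30.31 and 23.58 CPM in control and 35.01, 25.3 and 32.21 CPM in cKO animals. The position of the floxed exons is not given in the sources used here. Tags from outside the deleted exons remain after recombination, so these levels do not check it. Markers of the ventral pole summed to 341.5 to 486.3 CPM in ventral and 153.6 to 201.6 CPM in dorsal samples, as the tissue labels say. Of the 9 markers, 7 were higher and 2 lower in ventral than in dorsal tissue. Cyp26b1 was 1 of the 2, at 17.8 to 27.56 CPM ventral and 52.7 to 78.82 CPM dorsal. Every ventral cKO sum (341.5 to 389.3 CPM) lay below every ventral control sum (405.5 to 486.3 CPM). The dorsal pole list did not separate the regions (318.2 to 413.1 CPM ventral, 270.4 to 430.6 CPM dorsal). Choroid plexus markers, which come from ventricular tissue beside the hippocampus, set some samples apart within their groups and separated the ventral controls from the ventral cKO samples. Their sum was 4957 CPM in dorsal control 49 and 3078 CPM in dorsal cKO 64 against 272.4 to 458.2 CPM in the other dorsal samples. In the ventral hippocampus it was 3298 to 4578 CPM in the controls, 2635 CPM in cKO 63, and 215 and 175.4 CPM in cKO 40 and 64. Every ventral cKO sum thus lay below every ventral control sum. Of the 11 markers tested there, 9 were lower in cKO at an unadjusted p under 0.05 in edgeR's quasi-likelihood test, beside 3.43% of all genes tested. All 12 choroid plexus markers were detected.

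All 34 genes were expressed in every sample and passed the filter on low counts in every comparison. Each transcript yields tags from its end, so levels of different genes are compared as tag counts without division by length, on the CPM scale. The highest level was that of Dlgap1, the SAPAP1 gene, at 3280 to 4051 CPM, followed by Nrgn (1816 to 2525 CPM), which encodes neurogranin, a buffer that holds calmodulin, and Camk2a (1201 to 1974 CPM), the alpha subunit of CaMKII. The lowest was that of Shank3, at 1.63 to 6.612 CPM, which rested on only 13 to 59 counts per sample. Begain, a binding partner of the MAGUK PSD-95, stood at 8.518 to 15.29 CPM and Dlgap2 at 16.68 to 26.25 CPM. A median over the 34 genes of the log2 level relative to each gene's mean over all samples moved little, from -0.077 in dorsal control 49 to 0.134 in dorsal control 41. The 2 extremes of that median were controls of the same region.

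**Figure D1:**
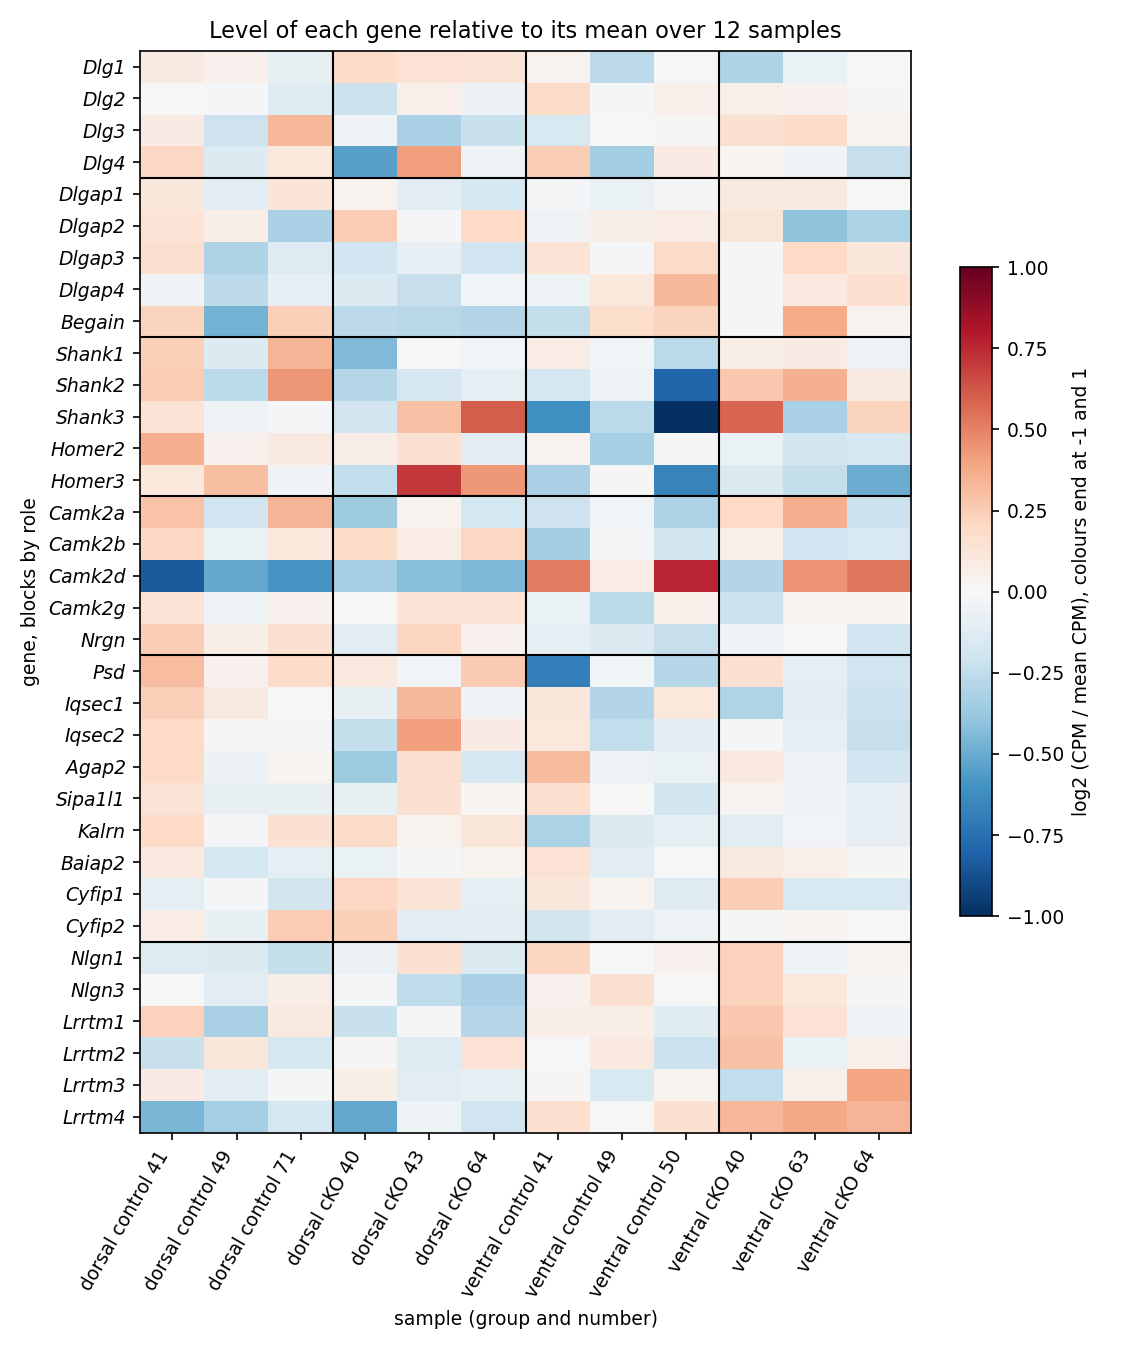
Log2 level of each of the 34 genes (rows, ordered by role) in each of the 12 samples (columns) relative to the gene's mean over the 12 samples. Camk2d and Lrrtm4 are below their means in all 6 dorsal samples and each is above in 5 of the 6 ventral ones (Camk2d is at -0.293 in cKO 40 and Lrrtm4 at -0.003 in control 49), and Shank3, the least abundant gene, spans the widest range, down to -1.42 in ventral control 50.

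The first comparison asked which of these transcripts differed after Tet3 ablation in the dorsal hippocampus. None passed the test: edgeR's quasi-likelihood test called 0 of the 34 genes, and 0% of the 15692 genes tested. Of the 34, 15 had a log2 fold change (cKO over control) above 0 and 19 below, with a median of -0.03 and a range of -0.35 to 0.24, where the median over all genes tested was 0.00. The sign of that median depended on the scaling, since it was 0.01 when counts were scaled by library size alone. At an unadjusted p under 0.05 there were 5 of the 34 genes, 1 above 0 and 4 below, beside 4.9% of all genes tested (2.13% above and 2.77% below 0).

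The 4 genes below 0 at that unadjusted p were 2 Shank scaffolds, a MAGUK and a kinase subunit. Shank2 (ENSMUSG00000037541, plus strand of chromosome 7, 144001928 to 144424494 in GRCm38), a master scaffold of the postsynaptic density, stood at 100, 69.43 and 113.7 CPM in controls 41, 49 and 71 and at 68.71, 74.64 and 78.4 CPM in cKO 40, 43 and 64. Control 49 lay within the cKO range, so the groups overlapped, and the log2 fold change was -0.35 ± 0.14 (SE; adjusted p = 0.968). Its paralog Shank1 (ENSMUSG00000038738, plus strand of chromosome 7, 44310253 to 44360572) measured 854.5, 658.1 and 917 CPM in control and 531.4, 722.9 and 711.3 CPM in cKO animals. Again control 49 was the low control, below cKO 43 and 64 (-0.31 ± 0.13, adjusted p = 0.968). Camk2a (ENSMUSG00000024617) measured 1866, 1344 and 1943 CPM in control and 1201, 1573 and 1358 CPM in cKO animals (-0.32 ± 0.13, adjusted p = 0.968), with control 49 between the cKO samples. Dlg3 (ENSMUSG00000000881, plus strand of chromosome X, 100767722 to 100818410), the gene of the MAGUK SAP102, measured 463.7, 380.2 and 553.6 CPM in control and 428.2, 349.6 and 376.9 CPM in cKO animals (-0.27 ± 0.12, adjusted p = 0.968). In all 4 genes control 71 had the highest value of the 6 dorsal samples.

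Shank1, Shank2 and Camk2a had their lowest cKO value in cKO 40, as did the summed markers of excitatory neurons, whereas Dlg3 had its highest cKO value there. The 5 markers, all detected, summed to 2350, 1815 and 2537 CPM in controls 41, 49 and 71 and to 1774, 2029 and 1974 CPM in cKO 40, 43 and 64, with control 49 again within the cKO range. Most of that sum was Slc17a7, a vesicular glutamate transporter (1573, 1132 and 1718 CPM in control, 1117, 1255 and 1276 CPM in cKO), while Slc17a6, its paralog, was at 52.24, 62.32 and 57.27 CPM in control and 78.57, 59.64 and 63.48 CPM in cKO animals. In bulk tissue fewer cells of a type and less RNA per cell cannot be told apart, and the part of cell composition in these values was not tested. Leaving out single samples moved the dorsal values: without control 49 Shank2 was at -0.54, Camk2a at -0.47, Shank1 at -0.44 and Dlg3 at -0.41. Without control 71 Shank2 was at -0.20, Camk2a at -0.22 and Dlg3 at -0.13, and without cKO 40 Shank1 was at -0.18. With dorsal control 49 and dorsal cKO 64 both left out, the 2 dorsal samples rich in choroid plexus markers, the values were -0.59 for Shank2 (adjusted p = 0.0983), -0.51 for Shank1, -0.47 for Camk2a and -0.40 for Dlg3, and 0 of the 34 genes were called, beside 0.0627% of all genes. The choice of those samples was made after the data were seen.

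Only Camk2d and Dlg1 had dorsal cKO values that all lay above the controls, that is 2 of the 34 genes, beside 5.4% of all genes tested. In 0 of the 34 genes did all lie below the controls, beside 4.68%. Camk2d (ENSMUSG00000053819, plus strand of chromosome 3, 126596302 to 126846326), the delta subunit of CaMKII, measured 32.4, 40.75 and 38.51 CPM in control and 46.04, 43.13 and 42.51 CPM in cKO animals (0.24 ± 0.11, adjusted p = 0.968). Dlg1, the MAGUK SAP97, measured 86.69, 83.88 and 77.57 CPM in control and 92.69, 90.39 and 89.17 CPM in cKO animals (0.14 ± 0.08, adjusted p = 0.968). The margins were narrow: the lowest cKO value of Camk2d exceeded the highest control by less than the spread among the controls. Cyfip1 (ENSMUSG00000030447, plus strand of chromosome 7, 55841745 to 55932602), a subunit of the WAVE complex that drives actin branching, had the sixth lowest p and measured 55.78, 59.08 and 52.41 CPM in control and 68.63, 64.98 and 55.54 CPM in cKO animals (0.19 ± 0.10, adjusted p = 0.968). Its cKO 64 lay within the control range. Without control 41 Camk2d was at 0.15, and without cKO 40 Cyfip1 was at 0.11. Of the remaining roles, the 9 regulators of small GTPases and actin ranged from -0.16 to 0.19 and the 6 adhesion genes from -0.18 to 0.16, with 0 at an unadjusted p under 0.05 in either.

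The same question was then put to the ventral hippocampus. Again edgeR's quasi-likelihood test called 0 of the 34 genes, beside 0% of the 15102 genes tested. Here 21 had a log2 fold change above 0 and 13 below, with a median of 0.04 and a range of -0.21 to 0.91, where the median over all genes was 0.00. At an unadjusted p under 0.05 there were 4 genes, all above 0, beside 7.23% of all genes tested (3.8% above and 3.43% below 0). In 5 genes every cKO value lay above every control value (Dlg3, Dlgap1, Shank2, Cyfip2 and Lrrtm4) and in 0 every cKO value lay below, beside 6.22% and 6.48% of all genes tested.

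Among the scaffolds, Shank2 stood at 74.34, 80.91 and 48.16 CPM in ventral controls 41, 49 and 50 and at 101.1, 107.3 and 88.98 CPM in cKO 40, 63 and 64. The groups did not overlap, and control 50 was the lowest sample (0.54 ± 0.16, adjusted p = 0.608). Shank3 (ENSMUSG00000022623, plus strand of chromosome 15, 89499623 to 89560261), another Shank scaffold, measured 2.845, 3.615 and 1.63 CPM in control and 6.536, 3.475 and 5.093 CPM in cKO animals (0.91 ± 0.33, adjusted p = 0.629). Its cKO 63 lay below control 49. The Shank3 values are uncertain for a further reason, as its exons share 271 bases with Gm15609 on the opposite strand, which held 611 counts in all samples against 458 for Shank3, and the strand setting of the counting is not given in the sources used here. Dlg3 measured 394.2, 439.5 and 442.7 CPM in control and 488.4, 499.6 and 450.5 CPM in cKO animals (0.17 ± 0.09, adjusted p = 0.722). Dlgap1 measured 3664, 3545 and 3659 CPM in control and 3939, 3956 and 3713 CPM in cKO animals (0.09 ± 0.08, adjusted p = 0.869).

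Camk2a had ventral levels of 1327, 1504 and 1238 CPM in control and 1762, 1974 and 1320 CPM in cKO animals, where cKO 64 lay within the control range (0.31 ± 0.14, adjusted p = 0.672). Without cKO 63 it was at 0.18. Psd (ENSMUSG00000037126, minus strand of chromosome 19, 46312087 to 46327156), an exchange factor for the small GTPase ARF6, measured 83, 130.5 and 109.4 CPM in control and 147.4, 125.1 and 115.8 CPM in cKO animals (0.27 ± 0.15, adjusted p = 0.755), and it was at 0.11 without control 41 and at 0.44 without control 49. Lrrtm4 (ENSMUSG00000052581, plus strand of chromosome 6, 80018877 to 80810143), a synapse-organising adhesion protein, measured 35.78, 31.84 and 35.49 CPM in control and 40.1, 41.42 and 40.45 CPM in cKO animals (0.24 ± 0.10, adjusted p = 0.67). Its 3 cKO samples lay closer together than the controls did. Without control 50 Shank2 was at 0.35, and without control 41 the Dlg3 value was 0.12. In none of the 6 fits that left out 1 ventral sample was any of the 34 genes called. DESeq2 called 0 of the 34 genes in either region as well, beside 0.14% of all genes tested in the dorsal and 0.0596% in the ventral hippocampus. With the first run of each sample alone edgeR called 0 of them, beside 0.00898% and 0.0293%.

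The excitatory neuron markers differed little between the ventral groups, with a median log2 fold change of 0.02 and 0 of 5 at an unadjusted p under 0.05. Their sum, again mostly Slc17a7, was 1996, 2092 and 2147 CPM in ventral controls 41, 49 and 50 and 2203, 2487 and 2123 CPM in cKO 40, 63 and 64, so the groups overlapped. The markers of CA2 and CA3 pyramidal neurons (8 of 8 detected) summed to 329.3, 446.1 and 276.3 CPM in the controls and to 540.6, 400.9 and 389.2 CPM in the cKO samples, with the lowest sum in control 50, where Shank2 and Shank3 were lowest as well. The markers did not move together there. In controls 41, 49 and 50 Rgs14 was at 114.9, 131.2 and 55.93 CPM and Cpne4 at 82.37, 146.9 and 73.99 CPM. Pcp4 was at 27.31, 22.1 and 37.88 CPM, and Bok and Amigo2 were lower in control 41 than in control 50. The first principal component (26.8% of the variance) separated the regions. Scores were 25.3, 26.1 and 32.5 in ventral controls 41, 49 and 50, and 7.5, 20.6 and 12.4 in ventral cKO 40, 63 and 64. Dorsal scores were -24.2 to -15.2. The scores also went with the choroid plexus sums. Ventral cKO 40 and 64, poor in those markers, had the lowest ventral scores. Dorsal control 49 (-15.2) and dorsal cKO 64 (-19.3), rich in them, had the highest dorsal scores. The part of tissue composition in the ventral genotype values, choroid plexus tissue included, was not tested.

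**Figure D2:**
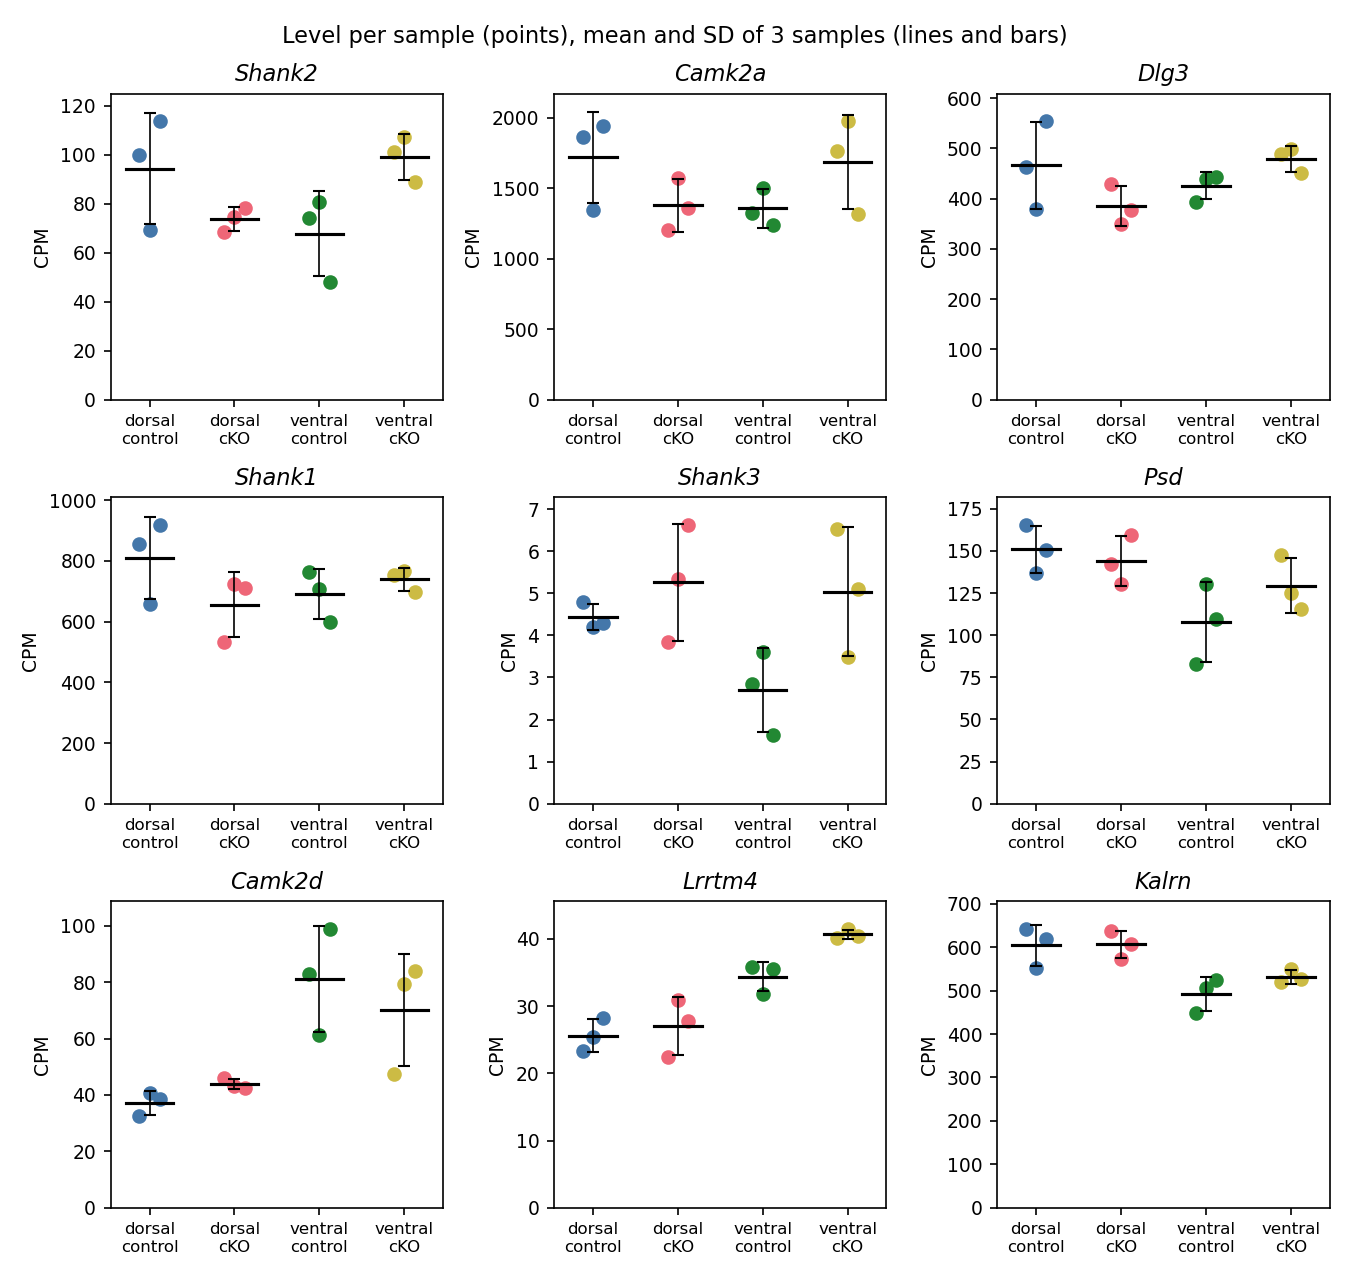
Level (CPM, linear axes from 0) of 9 of the genes in each sample, by group, with the group mean. Shank2, Camk2a and Dlg3 have a lower mean in cKO than in control in the dorsal and a higher mean in the ventral hippocampus, but control and cKO samples overlap for all 3 in the dorsal groups and for Camk2a in the ventral groups. Camk2d and Lrrtm4 are higher in every ventral than in every dorsal sample.

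The third comparison tested whether the genotype difference itself differed between the regions. 0 of the 34 genes passed the interaction test, beside 0% of the 16414 genes tested, although 4 had an unadjusted p under 0.05, all with the larger value in the ventral hippocampus, beside 7.96% of all genes tested (5.01% in that direction and 2.95% in the other). The interaction, which is the ventral minus the dorsal log2 fold change, was 0.90 ± 0.24 for Shank2 (adjusted p = 0.391), 0.63 ± 0.22 for Camk2a (0.482), 0.45 ± 0.16 for Dlg3 (0.504) and 0.40 ± 0.19 for Shank1 (0.623). Shank1 had ventral levels of 763.9, 708.3 and 600.2 CPM in control and 752.5, 766 and 697.5 CPM in cKO animals, so its ventral groups overlapped. Psd followed at 0.35 ± 0.19 (0.694) and Dlgap2, a SAPAP gene, at -0.38 ± 0.22 (0.699). Single samples moved these values: the Psd interaction was 0.19 without ventral control 41, 0.23 without ventral cKO 40 and 0.52 without ventral control 49, that of Dlgap2 was -0.58 without ventral cKO 40, and that of Dlg3 was 0.30 without dorsal control 71. With the sample number as a fixed block, the pairing described with the region comparison, the interaction was 0.49 for Shank2, 0.42 for Camk2a, 0.27 for Shank1, 0.24 for Dlg3 and -0.22 for Dlgap2, each with an adjusted p of 0.999. Dlgap2 measured, in dorsal tissue, 24.18, 23.07 and 17.54 CPM in control and 26.25, 21.85 and 25.32 CPM in cKO animals, and in ventral tissue 21.49, 23.08 and 23.2 CPM in control and 23.93, 16.68 and 17.68 CPM in cKO animals. Its highest and lowest values both came from cKO samples. For the 34 genes the median interaction was 0.07, and it was 0.00 under library size scaling alone, where the median over all genes was -0.07 against -0.01 with the main scaling. The call on Shank2 and Camk2a turned on the filter. Without a filter on low counts the interaction passed for Shank2 (0.89 ± 0.15, adjusted p = 2.87e-06) and Camk2a (0.63 ± 0.14, adjusted p = 0.00229), as did the ventral difference of Shank2 (0.54 ± 0.11, adjusted p = 0.000364), with 0.834% and 1.04% of all genes called in those 2 fits. These calls came with smaller SEs and not with larger differences. The SE of the interaction had been 0.24 for Shank2 and 0.22 for Camk2a, and that of the ventral Shank2 difference 0.16, with the filter. The dorsal comparison without a filter called 0 of the 34 genes, beside 0.32%.

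**Figure D3:**
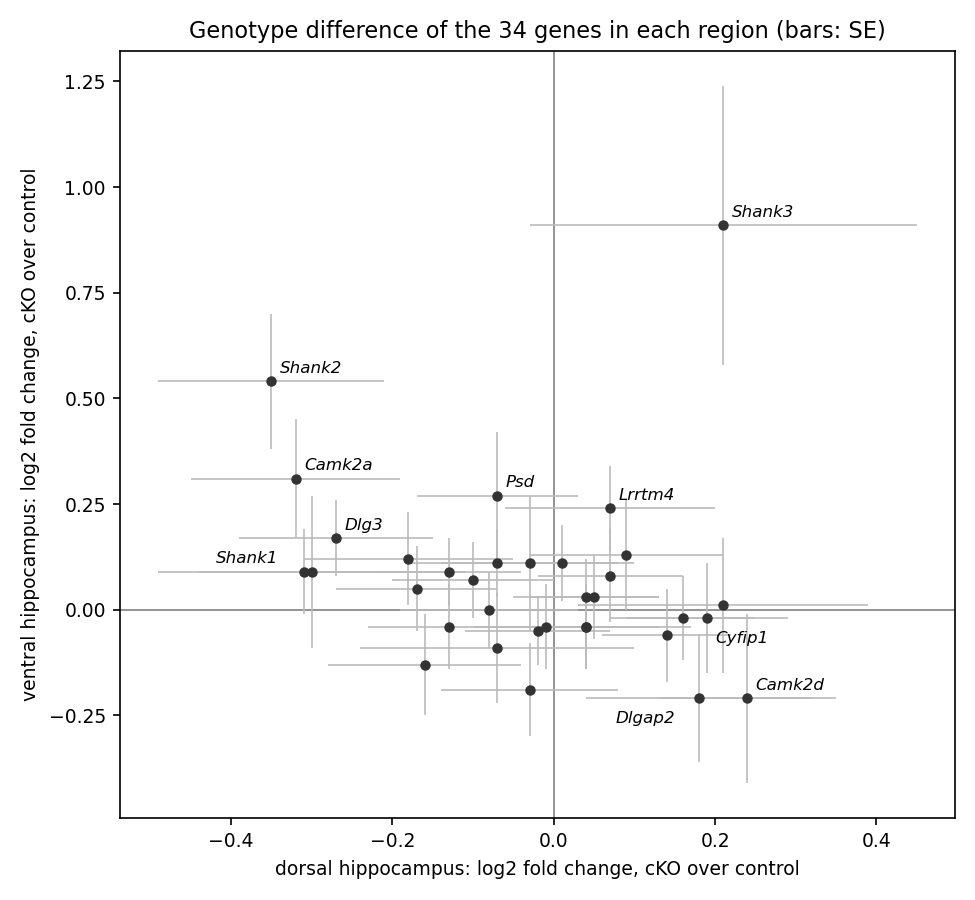
Log2 fold change, cKO over control, of each of the 34 genes in the dorsal (horizontal axis) and the ventral hippocampus (vertical axis). Shank2 lies farthest toward a negative dorsal and a positive ventral value (-0.35 and 0.54), and none of the values passed the test.

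The alpha and beta subunits assemble into the same CaMKII holoenzyme, and their ratio within a sample needs no scaling between samples. The log2 ratio of Camk2a to Camk2b tags was 0.87, 0.67 and 1.03 in dorsal controls 41, 49 and 71 and 0.26, 0.75 and 0.41 in dorsal cKO 40, 43 and 64. It was 0.93, 0.78 and 0.67 in ventral controls 41, 49 and 50 and 0.95, 1.35 and 0.73 in ventral cKO 40, 63 and 64. The groups overlapped in both regions, and the ratio was chosen after the values were seen. Camk2b itself, the actin-binding subunit, had genotype values near 0 in both regions (0.07 ± 0.09 dorsal and 0.08 ± 0.11 ventral). Camk2g and Nrgn were also near 0, from -0.10 to 0.07.

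The fourth comparison was between the regions, as the mean of the ventral over dorsal differences in control and in cKO. It called 8 of the 34 genes, 3 higher and 5 lower in the ventral hippocampus, beside 14.1% of the 16414 genes tested (6.67% higher and 7.43% lower). The median over the 34 genes was -0.02 and that over all genes 0.00. The largest difference was that of Camk2d, higher in the ventral hippocampus, and the adhesion gene Lrrtm4 came next. The CaMKII role was split, since Camk2b and Nrgn were lower in the ventral hippocampus while Camk2a did not differ by more than its error (-0.02 ± 0.11). That Camk2a value averaged differences between group means that had opposite signs. Its mean was 1718 CPM dorsal and 1356 CPM ventral in control, and 1378 CPM dorsal and 1686 CPM ventral in cKO animals. Neither difference was called within its genotype, and the interaction of Camk2a, given above, did not pass the test.

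Camk2d stood at 32.4 to 46.04 CPM in the 6 dorsal samples, given above, and, in ventral tissue, at 82.87, 61.31 and 98.7 CPM in control and 47.41, 79.37 and 83.89 CPM in cKO animals. No ventral sample overlapped a dorsal one, but ventral cKO 40 exceeded the highest dorsal sample only slightly (0.90 ± 0.13, adjusted p = 0.000123). Its share of all Camk2 tags was 1.06 to 1.95% in dorsal and 1.68 to 4.41% in ventral samples. Lrrtm4 had dorsal levels of 23.27, 25.34 and 28.25 CPM in control and 22.41, 30.85 and 27.77 CPM in cKO animals, below all ventral values given above (0.51 ± 0.09, adjusted p = 0.000504). These 2 were the only genes of the 34 whose ventral samples all lay above the dorsal ones, beside 3.62% of all genes tested. Dlgap4 (ENSMUSG00000061689, plus strand of chromosome 2, 156613705 to 156764363), a SAPAP gene, measured, in dorsal tissue, 310.5, 264.8 and 300.8 CPM in control and 289.2, 271.3 and 312.1 CPM in cKO animals, and in ventral tissue 307.7, 343 and 397.1 CPM in control and 321.3, 340.3 and 357.4 CPM in cKO animals. Only ventral control 41 lay within the dorsal range (0.24 ± 0.07, adjusted p = 0.0274).

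Homer3 (ENSMUSG00000003573, plus strand of chromosome 8, 70282827 to 70294361), a Homer adaptor, had the largest difference toward the dorsal hippocampus. It measured, in dorsal tissue, 72.09, 82.7 and 65.32 CPM in control and 56.59, 109.3 and 90.5 CPM in cKO animals, and in ventral tissue 53.67, 67.71 and 42.26 CPM in control and 60.6, 56.85 and 47.64 CPM in cKO animals (-0.53 ± 0.14, adjusted p = 0.0149). Dorsal cKO 43 and 64 had the highest values, and without cKO 43 the region value was -0.41 (adjusted p = 0.0522). In the controls alone it was -0.43, which was not called. The exons of Homer3 share 874 bases with Ddx49 on the opposite strand, which held 1034 counts against 7232. Kalrn (ENSMUSG00000061751, minus strand of chromosome 16, 33969073 to 34573532), the exchange factor kalirin that acts on Rac in spines, measured, in dorsal tissue, 641.2, 551.1 and 620.1 CPM in control and 637.5, 573.8 and 607.8 CPM in cKO animals, and in ventral tissue 449.3, 505.5 and 523.7 CPM in control and 519, 549.6 and 527.2 CPM in cKO animals. It was the only gene of the 34 with every ventral sample below every dorsal one, beside 3.98% of all genes tested (-0.24 ± 0.06, adjusted p = 0.0127). The gap between the regions was small, from 549.6 to 551.1 CPM.

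Psd had dorsal levels of 165.2, 137.1 and 150.7 CPM in control and 142.3, 130.2 and 159.5 CPM in cKO animals, with the ventral values given above (-0.32 ± 0.10, adjusted p = 0.0333). Camk2b (ENSMUSG00000057897, minus strand of chromosome 11, 5969644 to 6066362) measured, in dorsal tissue, 1020, 846.5 and 951 CPM in control and 1001, 932.2 and 1020 CPM in cKO animals, and in ventral tissue 695.5, 877.5 and 779.1 CPM in control and 915.3, 775.7 and 793.4 CPM in cKO animals (-0.26 ± 0.07, adjusted p = 0.0243). Ventral control 49 and ventral cKO 40 lay above dorsal control 49, the lowest dorsal sample. Nrgn (ENSMUSG00000053310, minus strand of chromosome 9, 37544492 to 37552904) measured, in dorsal tissue, 2525, 2238 and 2375 CPM in control and 1967, 2470 and 2200 CPM in cKO animals, and in ventral tissue 2009, 1926 and 1816 CPM in control and 2066, 2129 and 1868 CPM in cKO animals (-0.22 ± 0.07, adjusted p = 0.0391). Dorsal cKO 40 was the low dorsal sample and lay within the ventral range. Dlgap3 (0.23 ± 0.08, adjusted p = 0.0523), a SAPAP gene, and Homer2 (-0.22 ± 0.08, adjusted p = 0.0638) narrowly missed the threshold and were not called. Among the adhesion genes all 6 had a region value above 0, from 0.05 to 0.51, and among the 5 Shank and Homer genes all had one below 0, from -0.53 to -0.02, with 1 passing the test in each role. The 4 MAGUK genes ranged from -0.18 to 0.12, and 0 passed.

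Oligodendrocyte markers, a sign of white matter in the dissected piece, moved with region: all 10 were detected and their sum was 7474 to 9186 CPM in dorsal and 2696 to 3539 CPM in ventral samples. Choroid plexus markers differed within both regions, as given above. Their part in the region differences was not tested. The numbers in the sample titles are read here as animals, and samples 40, 41, 49 and 64 occur in both regions. With the number as a fixed block, which left 2 residual degrees of freedom, 2 of the 34 genes were called, Camk2d (0.73 ± 0.15, adjusted p = 0.0074) and Lrrtm4 (0.59 ± 0.11, adjusted p = 0.00376), beside 8.6% of all genes. With the number as a random block in limma, 10 were called, beside 15.2%. The count also depended on single samples, at 4 without ventral cKO 64 (beside 11% of all genes), 5 without ventral control 50 (12.9%) and 5 without dorsal control 71 (12%). Camk2d, Lrrtm4 and Kalrn passed whichever of the 12 samples was left out, whereas Dlgap4, Homer3, Psd, Camk2b and Nrgn each missed the threshold in at least 1 of those fits.

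**Figure D4:**
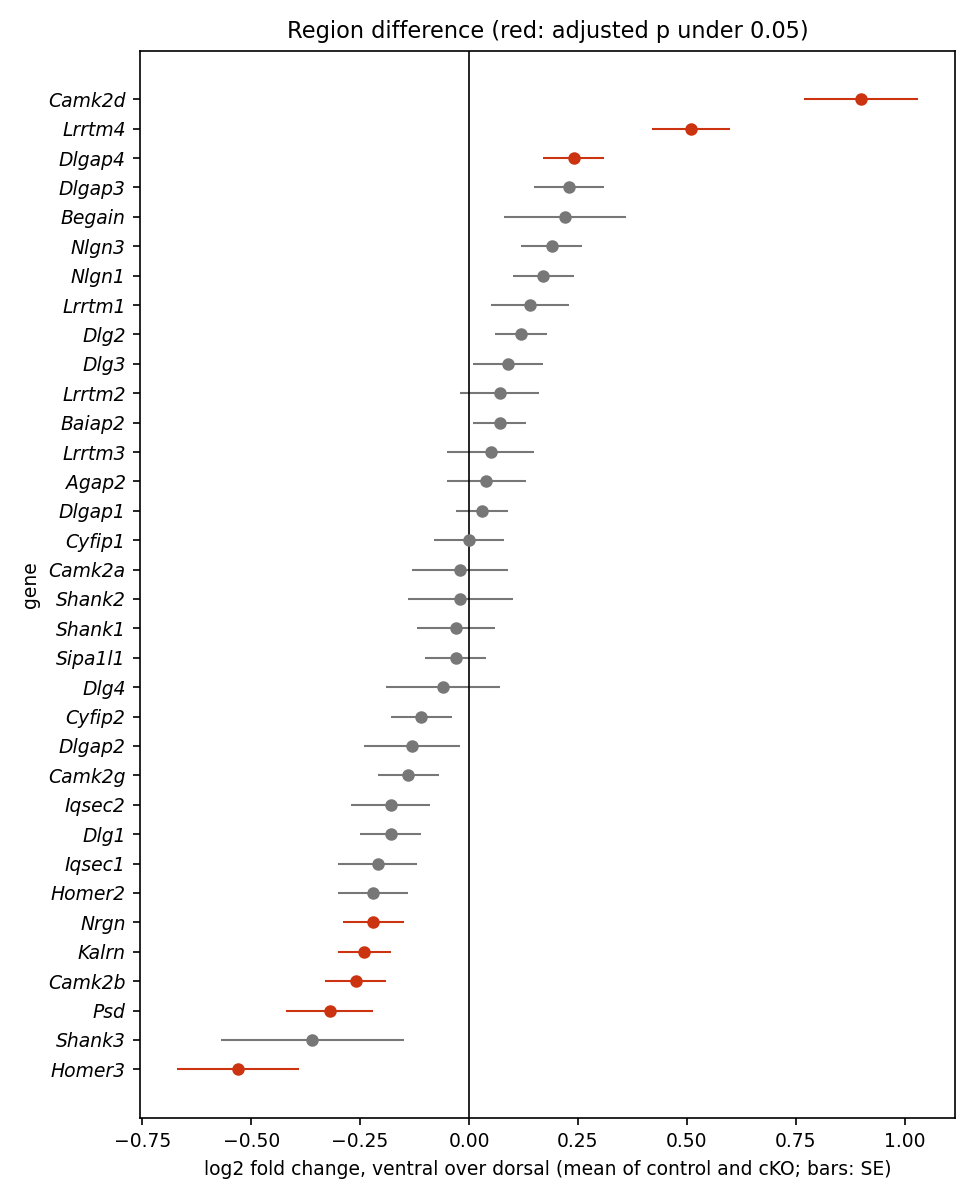
Log2 fold change, ventral over dorsal, of each of the 34 genes with its standard error (bars). Of the 8 genes that passed the test, drawn in red, Camk2d (0.90) and Lrrtm4 (0.51) have the largest positive and Homer3 (-0.53) the largest negative value.

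Within the controls alone, 4 of the 34 genes differed between the regions, 2 in each direction, beside 7.86% of all genes tested (3.48% higher and 4.38% lower): Camk2d (1.12 ± 0.18, adjusted p = 0.000777), Lrrtm4 (0.43 ± 0.12, 0.0382), Psd (-0.50 ± 0.14, 0.0324) and Kalrn (-0.29 ± 0.09, 0.0464). Within cKO, 2 did, both higher, beside 6.16% (2.83% higher and 3.33% lower): Lrrtm4 (0.59 ± 0.12, 0.00626) and Camk2d (0.67 ± 0.19, 0.0401). The difference between these 2 contrasts is the interaction, which passed for none of them (Camk2d -0.45 ± 0.26, adjusted p = 0.706; Lrrtm4 0.17 ± 0.17, 0.849; Psd 0.35 ± 0.19, 0.694; Kalrn 0.11 ± 0.12, 0.868). Shank2 illustrates how the sign of a region value can follow the genotype compared, at -0.47 ± 0.17 in control (adjusted p = 0.106) and 0.43 ± 0.17 in cKO (0.169), neither of which passed. With the number as a fixed block, 1 gene was called in control, Camk2d (0.98, adjusted p = 0.0196), beside 3.92% of all genes, and 1 in cKO, Lrrtm4 (0.70, adjusted p = 0.0267), beside 3.13%. Calls within 1 genotype depended on single samples. Among the controls the count was 1 without dorsal control 41, ventral control 41 or ventral control 50, and 2 without dorsal control 71, dorsal cKO 64 or ventral cKO 64. Those fits called 4.71% to 7.18% of all genes. In cKO the count was 1 without dorsal control 71, dorsal cKO 43, dorsal cKO 64, ventral cKO 63 or ventral cKO 64, beside 3.83% to 5.61% of all genes.

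Other genes of the postsynaptic side were read from the same fits to place the 34 in their surroundings, from a list of 108 matched genes of kinase and calmodulin signalling, further scaffolds, further GTPase and actin regulators and further adhesion proteins. Between the regions 29 of the 108 were called (18 higher and 11 lower in the ventral hippocampus) with a median of 0.05, beside 14.1% of all genes tested (6.67% higher and 7.43% lower). The largest were Actn2 (1.20 ± 0.22, adjusted p = 0.00105), an actin crosslinker that binds NMDA receptors and CaMKII, Lrfn3 (1.04 ± 0.23, 0.00445), a synaptic adhesion molecule, Shisa9 (0.72 ± 0.11, 0.000205), an auxiliary subunit of AMPA receptors, and Ephb2 (-0.56 ± 0.10, 0.00057), a receptor for ephrin-B. Actn2 and Lrfn3 were low in level, at 1.255 to 5.561 CPM and 0.8625 to 3.135 CPM. The kinase group had 2 genes called higher and 4 lower of 28, the scaffolds 2 and 1 of 20, the GTPase and actin group 8 and 2 of 33, and the adhesion group 6 and 4 of 27. Camk2n1, an endogenous CaMKII inhibitor, was lower in the ventral hippocampus (-0.47 ± 0.09, adjusted p = 0.00104), as was Ppp3ca, the catalytic subunit of calcineurin (-0.41 ± 0.08, 0.00135), both named after their values were seen.

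For genotype, 0 of the 108 genes were called in either region or in the interaction, with medians of 0.02 dorsal, 0.05 ventral and 0.00 for the interaction. At an unadjusted p under 0.05 there were 6 dorsal, 7 ventral and 10 interaction genes of the 108, beside 4.9%, 7.23% and 7.96% of all genes tested. The lowest dorsal p values were those of Ephb3, an ephrin receptor (-0.44 ± 0.11, adjusted p = 0.587), Lrrc7, the scaffold densin (0.31 ± 0.09, 0.798), Calm3, a calmodulin gene (-0.35 ± 0.11, 0.822), and Abhd17c, a depalmitoylase that acts on PSD-95 (-0.24 ± 0.10, 0.968). Ephb3 had dorsal levels of 171.1, 137.6 and 172.5 CPM in control and 125.6, 127.8 and 100.1 CPM in cKO animals, without overlap. The ventral ones were Wasf3, a WAVE subunit (0.36 ± 0.13, adjusted p = 0.622), Flrt3 (0.28 ± 0.10, 0.622) and Il1rapl1 (0.44 ± 0.16, 0.629), both synaptic adhesion proteins, and Lzts3, a Shank-binding protein (0.91 ± 0.37, 0.633). In the interaction they were Ephb3 (0.65 ± 0.18, adjusted p = 0.391), Calm3 (0.56 ± 0.17, 0.421), Wasf3 (0.79 ± 0.26, 0.478) and Abhd17c (0.46 ± 0.17, 0.494). Their dorsal values were all below 0 and ventral values all above 0. Picking genes by the interaction p favours such opposite signs, so they are not read as a result.

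The deposited tables list each sequencing run in a column of its own, and how the authors combined runs in their test is not given in the sources used here. In the authors' deposited table none of the 34 genes (0) had a false discovery rate under 0.05 in the dorsal hippocampus, beside 0.564% of all listed genes, and 2 had one in the ventral hippocampus, beside 1.86%. These were Shank2 (log2 fold change 0.51, false discovery rate 0.00764 in the authors' deposited table) and Shank3 (0.91, 0.0205 in the authors' deposited table). Runs of 1 sample share their RNA. For the 34 genes the SD of log2 CPM (pseudocount 0.5) had a median of 0.141 between single runs of 1 sample. Between samples of 1 group, each taken as the mean over its runs, it had a median of 0.132. The second SD is of averages and the first of single runs, so the 2 medians do not compare the spread of runs with that of samples. For Shank2 the SD was 0.09 between single runs and 0.218 between sample means, so its samples differed by more than its runs. With runs summed per sample and the filter on low counts, neither gene passed the test, and without the filter Shank2 did, as given above, over 29146 genes, the number listed in the authors' deposited table. The part of summing the runs was not tested.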

How the data were processed

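Per the labels' protocols, 500 ng of Trizol-extracted total RNA entered the Lexogen QuantSeq 3′ library kit. The submitters' processing notes name cutadapt, HISAT2, featureCounts and edgeR, and the build GRCm38. Versions, annotation release and strand setting are not given in the sources used here. The deposited tables hold whole-number counts per gene and run. The authors also deposited a scaled signal beside each count, per the file headers, which was not used. The tables further give, per the file headers, the authors' log2 fold change, log2 CPM, likelihood ratio score, p-value and false discovery rate per gene, of which the log2 fold change, p-value and rate were read.

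The runs of a sample were added up (5.12 to 15.9 M counts, 35 runs). A gene absent from 1 table was entered at 0 there. Tests were edgeR's quasi-likelihood F tests (edgeR 4.0.16, R 4.3.3), after filterByExpr (by group) and TMM scaling, and p-values were adjusted by Benjamini-Hochberg over all genes tested, with a threshold of 0.05. Genotype fits used the 6 samples of 1 region, and the region and interaction contrasts all 12 samples in 1 fit. CPM is per M counts of the TMM-scaled library over all 12 samples, and ± after a log2 fold change is the SE of the fit. An exact permutation of 3 against 3 samples gives no p under 0.1, so none was used. The script was tested on simulated data. Alternatives were limma 3.58.1 (voom), DESeq2 1.42.0, other scalings, no filter or a mean of at least 10 counts, the first run alone, and each sample left out.

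The members and lists were chosen with earlier results of these data known. Genes given sample by sample were those past the threshold for genotype or interaction, the 6 lowest p in each of these fits, up to 6 per direction past the region threshold, and Camk2a; of other postsynaptic genes, the 4 lowest p per comparison (for region, the 4 largest past the threshold). Dlg1, Dlgap1, Dlgap3, Homer2, Begain and the region values of Shank2 were added after their values were seen. Coordinates are from GENCODE M21 (99.83% of identifiers matched).

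The labels do not say what a title number stands for. It is taken to name the animal because the numbers are not consecutive and those in both regions carry the same genotype. Deviations from the group means of same-numbered samples correlated at 0.035 (40), 0.106 (41), 0.076 (49) and -0.107 (64) between regions. If samples of a group are not separate animals, p-values measure technical spread only.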

Additional observations from a re-analysis of the deposited data

Results flagged for a closer look

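Of the 142 postsynaptic genes checked, 1 was flagged: Flrt2, an adhesion protein that binds latrophilins. Its cKO samples all lay above the controls in dorsal tissue and all below them in ventral tissue. Of all genes tested, 5.4% had such higher cKO values in the dorsal and 6.48% such lower ones in the ventral hippocampus. The share of all genes with both was not computed, so 1 flagged gene among 142 is not read as a result. In dorsal tissue it measured 92.4, 92.72 and 79.56 CPM in control and 93.74, 100.8 and 97.49 CPM in cKO animals, and in ventral tissue 93.49, 88.7 and 89.42 CPM in control and 83.2, 88.4 and 80 CPM in cKO animals. The interaction log2 fold change was -0.25 ± 0.12, which missed the threshold in edgeR's quasi-likelihood test (adjusted p = 0.624). In both regions the gap between the groups was smaller than the spread among the controls.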

How the results depend on the processing

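No member was called for genotype or interaction with any 1 sample left out, under either scaling, with the stricter filter, limma voom, DESeq2 or the first run alone; without a filter 1 member was called in the ventral and 2 in the interaction fit. Precision was limited by 3 samples a group and, for Shank3, by few counts. Genes called over the whole table moved more. For the dorsal genotype comparison they were 0 in the main fit, 22 with DESeq2, 94 without a filter, 1 with the first run alone and 10 without dorsal control 49 and dorsal cKO 64 together, a setting added with the data in view. With 1 sample left out they ranged from 0 to 25, the highest without dorsal control 49. For the ventral comparison they were 0, with DESeq2 9, without a filter 302 and with the first run alone 3, and 0 to 55 with 1 sample left out, the highest without ventral cKO 63. For the interaction they were 0, with DESeq2 34 and without a filter 265, and 0 to 4 with 1 sample left out. The cause of these shifts was not tested.

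Between the regions, 2313 genes were called in the main fit, 1149 with the first run alone, 1411 with the replicate block as a fixed term and 1844 to 2261 with 1 sample left out. Members called were 8, beside 14.1% of all genes, and 2 with the fixed replicate block, beside 8.6%. With 1 sample left out they were 4 to 9, beside 11% to 13.4%. In the controls alone 4 members were called, beside 7.86% of all genes. The count was 7 without a filter (beside 5.69%), 1 with the fixed replicate block (3.92%) and 1 to 6 with 1 sample left out (4.71% to 7.67%). In the cKO samples 2 members were called, beside 6.16% of all genes. The count was 1 with limma voom (beside 5.98%), 1 with library size scaling (6.18%), 5 without a filter (4.48%) and 0 with the first run alone (3.89%). It was 1 with the replicate block fixed (3.13%), 1 with it random (6.45%) and 1 without dorsal control 49 and dorsal cKO 64 (4.22%). With 1 sample left out it was 1 to 3 (3.83% to 6.4%). Genes called in the controls were 1290, with the first run alone 675, with the fixed block 643 and, with 1 sample left out, 794 to 1292. In cKO they were 1011, 423, 513 and 644 to 1074 in the same order. The fixed block had 2 residual degrees of freedom and called 0 of 34 in the interaction, with the values given above. No paired analysis was possible for the genotype comparisons because control and cKO samples of a region share no number. Of the member values chosen by the rule for named genes, none changed sign in the alternatives run, which were not read for the other members singly. Over all 34 genes, 23 kept the sign of their ventral genotype value without ventral control 41, and 27 that of their dorsal value without dorsal cKO 43.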
